A study of Mus musculus with 22 samples.

Results

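Between 6 and 12 h of erythroid differentiation, 614 of the 21498 regions marked by acetylation of histone H3 at lysine 27 (H3K27ac) in mouse G1ER cells carried a peak at one time point and not at the other. The regions were made by merging the 4 H3K27ac peak lists of these times wherever peaks touched. A region was called gained when both 12 h lists and neither 6 h list had a peak in it (273 regions, 1.27% of all), and lost when the reverse held (341 regions, 1.59%). Since the same lists that are compared chose these members, the counts and the presence or absence of peaks at 6 and 12 h are a description and were given no test.

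G1ER (G1E-ER4) is a mouse erythroid progenitor line that lacks endogenous GATA1 and carries GATA1 fused to the ligand-binding domain of the estrogen receptor. All groups were grown with stem cell factor and erythropoietin. The compared groups had received 10-7 M β-estradiol for 6 h or 12 h (2 ChIP-seq libraries each), within a series of 22 peak lists that also holds H3K27ac at 0, 2, and 24 h, H3K4me3 at the same 5 times (2 lists each), and CTCF at 0 and 24 h (1 list each). All libraries came from this 1 line, in which GATA1 activity follows the hormone. Nothing in the labels states that replicates were separate cultures, so p-values measure only the spread between these samples.

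H3K27ac is deposited by acetyltransferases such as p300 and CBP on nucleosomes that flank active promoters and enhancers, and distinguishes active enhancers from primed ones. GATA1 binds GATA hexamers, often beside E-boxes bound by TAL1, and as it rises in erythroid precursors it replaces GATA2, raises heme, globin, and red cell membrane genes, and represses progenitor genes such as Kit and Myb. H3K4me3, in contrast, marks the nucleosomes around the start sites of active genes.

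To show the regulatory DNA behind the best-scoring members, 200 bases are printed for the 3 gained and the 3 lost regions with the highest score percentile. In each, the window shared by both lists with the most GATA hexamers was taken, so the number of matches was maximized by choice. Capitals mark every match on either strand to the hexamer AGATAA or to TGATAA, as well as to AGATAG or to TGATAG, and all sequences are the plus strand of GRCm38 (mm10). The gained windows lie in an intron of Inpp5b (an inositol polyphosphate 5-phosphatase), in an exon of a retained-intron transcript of Zeb2 (a zinc-finger repressor), and in an intron of Zeb2. They hold 3, 3, and 5 matches.
Inpp5b gained chr4:124752477-124752676: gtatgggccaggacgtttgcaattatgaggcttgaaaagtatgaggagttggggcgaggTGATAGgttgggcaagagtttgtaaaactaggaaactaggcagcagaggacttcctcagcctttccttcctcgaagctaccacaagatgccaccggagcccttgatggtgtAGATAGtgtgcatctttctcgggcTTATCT
Zeb2 gained chr2:45107186-45107385: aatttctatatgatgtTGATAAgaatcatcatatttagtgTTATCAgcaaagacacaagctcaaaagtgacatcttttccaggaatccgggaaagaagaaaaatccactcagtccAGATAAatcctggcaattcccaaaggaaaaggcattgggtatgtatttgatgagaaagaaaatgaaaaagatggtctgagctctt
Zeb2 gained chr2:45114996-45115195: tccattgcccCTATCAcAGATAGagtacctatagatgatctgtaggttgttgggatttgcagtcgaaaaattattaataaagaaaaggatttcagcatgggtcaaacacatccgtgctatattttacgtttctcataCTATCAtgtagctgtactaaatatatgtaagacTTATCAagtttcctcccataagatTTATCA

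The lost windows lie in introns of Nuggc (a nuclear GTPase), Cdk13 (a cyclin-dependent kinase of transcription), and Cic (the repressor capicua). They hold 2, 3, and 2 matches.
Nuggc lost chr14:65626620-65626819: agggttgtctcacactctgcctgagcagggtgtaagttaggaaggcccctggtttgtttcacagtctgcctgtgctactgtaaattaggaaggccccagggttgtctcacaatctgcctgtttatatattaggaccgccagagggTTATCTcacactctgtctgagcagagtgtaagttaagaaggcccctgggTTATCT
Cdk13 lost chr13:17802857-17803056: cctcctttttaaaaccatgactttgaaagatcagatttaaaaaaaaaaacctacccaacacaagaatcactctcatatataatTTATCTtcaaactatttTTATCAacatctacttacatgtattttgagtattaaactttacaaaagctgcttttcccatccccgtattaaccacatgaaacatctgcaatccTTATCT
Cic lost chr7:25268618-25268817: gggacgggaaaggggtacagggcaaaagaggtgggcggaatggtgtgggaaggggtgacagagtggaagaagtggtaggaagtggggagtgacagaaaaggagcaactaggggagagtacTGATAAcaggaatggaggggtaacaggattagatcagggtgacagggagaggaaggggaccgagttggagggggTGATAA

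The 4 lists were similar in size. They held 18284 and 18333 peaks at 6 h and 18043 and 17998 at 12 h, a difference of means of -288 peaks (exact permutation test, two-sided, p = 0.333, the smallest that 2 lists against 2 can give). Mean peak length was 2538 and 2528 bp (6 h) and 2568 and 2592 bp (12 h) (difference 46.9 bp, exact permutation p = 0.333), and the covered length was 46.4 and 46.4 Mb against 46.3 and 46.6 Mb (exact permutation p = 1). The Jaccard index of covered bases was 0.759 between the 6 h lists, 0.753 between the 12 h lists, and 0.751 to 0.753 across time points. The depth of each library is unknown, because the files give peaks and not reads. Of 8 erythroid markers, Slc4a1, Epb42, and Klf1 had a peak within 2 kb of the transcription start site (TSS) in all 4 lists and Alas2 in some. Tfrc and Epor had none, although H3K4me3 covered them in 4 of 4 lists, and Tal1 had neither mark. None of 16 markers of other cell types had an H3K27ac peak there. The longest peak per H3K27ac list measured 8769 to 8973 bp, and peaks of 9 kb or longer numbered 0 in every list. Whether longer peaks were called and left out is not given in the sources used here. A covered length of 0 bp in a long region can therefore mean no peak or a peak beyond these lengths, and which of them held was not tested.

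The number of gained regions was close to that of each pattern in which the replicates disagreed at both times. The 4 patterns with a peak in 1 list of either time point held 274 to 287 regions (1128 in all), against 273 gained and 341 lost. Peaks in all 4 lists were found in 15124 regions (70.4%), in exactly 3 lists in 1664, and in exactly 1 list in 2968. Just outside the rule, 734 regions had peaks in both 12 h lists and 1 of the 6 h lists, and 930 in both 6 h lists and 1 of the 12 h lists. Gained regions covered 0.370 Mb, or 0.795% of the covered bases at 12 h, and lost regions 0.619 Mb, or 1.34% of those at 6 h. The members thus made up a small part of either landscape, and the 4 mixed patterns are given beside them as a measure of replicate disagreement.

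**Figure D1:**
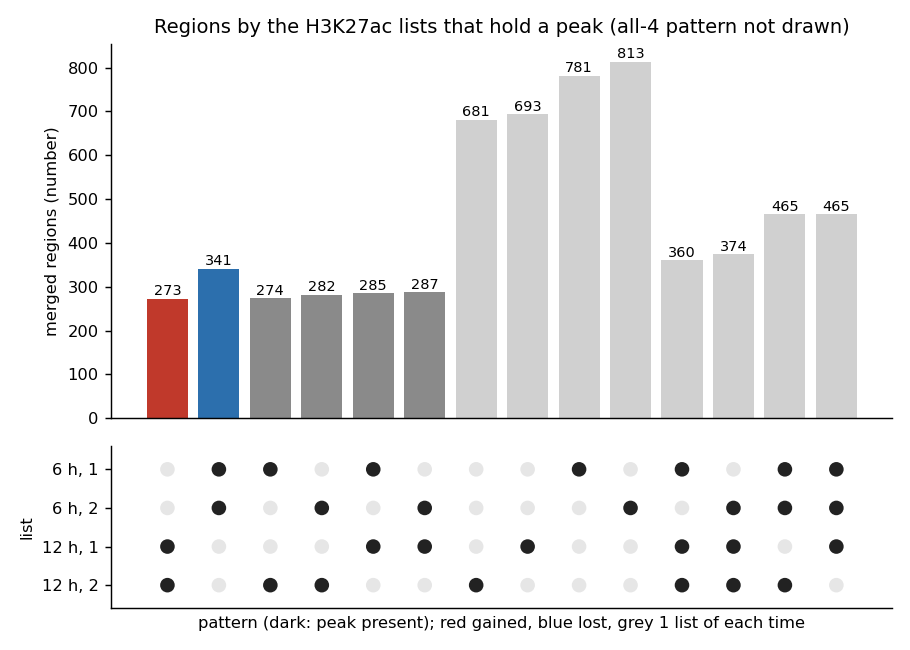
Number of merged regions (y axis) for each pattern of peak presence in the 4 H3K27ac lists, with dark dots marking the lists that hold a peak. The 273 gained and 341 lost regions stand beside 274 to 287 regions in each pattern with 1 list of either time, and the 15124 regions with a peak in all 4 lists are not drawn.

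Most members were short, weak peaks away from promoters. The median length was 1153 bp for gained and 1138 bp for lost regions, against 1112 bp for the regions with 1 list of each time and 2812 bp for those in all 4 lists. Taking the lower score percentile of the 2 lists that held a member, the median was 5.19 for gained and 6.81 for lost regions, against 52.6 for regions in all 4 lists. The lowest deposited score among gained regions was 50.04 and among lost regions 50.05, next to the lowest score of 50.0 that the lists contain. Gained and lost members therefore lay mostly near the score limit of the lists, as did the regions with 1 list of each time (median percentile 6.14).

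A TSS within 2 kb was found for 34 gained (12.5%, 95% Wilson interval 9.05 to 16.9%) and 54 lost regions (15.8%, 12.3 to 20.1%). The same share was 15.1% in the regions with 1 list of each time and 55.0% in those in all 4 lists. Regions that touched introns and no exon made up 41.0% of gained, 34.9% of lost, and 14.8% of all-4 regions. In the whole set of 614, 81 regions lay in no gene and over 50 kb from a TSS and are not named here.

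Members carried the promoter mark H3K4me3 at shares near those of the regions with 1 list of each time. A peak in any H3K4me3 list at 6 or 12 h lay in 24.9% of gained, 31.1% of lost, 28.4% of 1-list-each, and 73.0% of all-4 regions. By the same rule applied to H3K4me3, none of the 273 gained regions gained or lost that mark. Of the 341 lost regions, 1 gained it and 1 lost it. Such changes were rare elsewhere too, with 0.177% gained and 0.621% lost among the 1-list-each regions and 0.165% and 0.575% among the all-4 regions. H3K4me3 in all 4 lists at 6 and 12 h was present in 43 gained (15.8%) and 78 lost regions (22.9%), against 17.3% of the 1-list-each regions.

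CTCF peaks at 0 h lay in 20.1% of gained and 15.5% of lost regions, against 18.4% of 1-list-each and 29.3% of all-4 regions. At 24 h they lay in 19.8% and 20.2%, against 22.1% and 36.3%. CTCF, the insulator protein, was measured in 1 list at either time, so these shares have no replicate check.

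GATA hexamers were common in both directions. Within 500 bp around the midpoint, 65.9% of gained regions (60.1 to 71.3%) and 70.1% of lost regions (65.0 to 74.7%) held 1 of the 4 GATA hexamers listed above on either strand, against 56.6% of all 21498 regions. The share was 66.7% in regions with 1 list of each time and 70.3% in regions of all 4 lists with no TSS within 2 kb. The intervals of the gained and of the lost regions included both of these values, and lay above that of all regions.

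The CACCC box CCNCNCCC, a Krüppel-like factor site, lay in 43.2% of gained and 39.6% of lost regions, against 50.9% of all regions, 40.7% of the 1-list-each regions, and 42.6% of the all-4 regions away from promoters. A STAT palindrome (TTCNNNGAA) was found in 17.6% and 18.8%, against 13.4% of all regions, 14.0% of the 1-list-each regions, and 14.7% of the all-4 regions away from promoters. The E-box CANNTG was near-universal at these lengths (91.6% and 93.3%, 89.1% of all). ETS (GAGGAA) lay in 45.4% and 42.5% (41.0% of all), RUNX (TGNGGT) in 65.9% and 64.5% (65.7%), AP-1 and NF-E2 (TGANTCA) in 13.6% and 15.2% (13.5%), and the Myc E-box CACGTG, itself a match to CANNTG, in 7.33% and 8.21% (9.81%). A match is a description of the sequence, and no difference between these shares was tested.

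**Figure D2:**
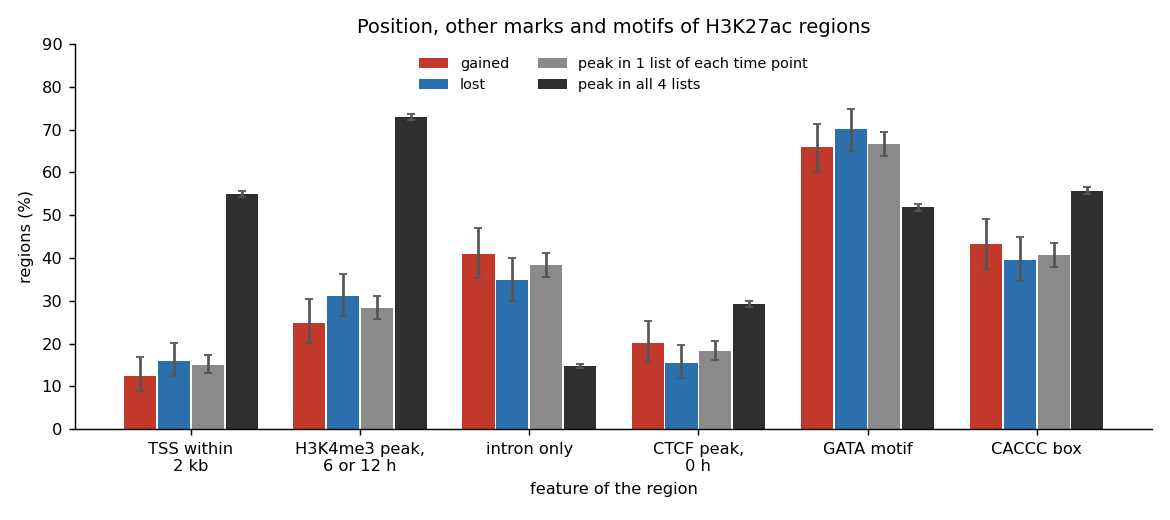
Share of regions (y axis, %) with each feature (x axis) for gained, lost, 1-list-each, and all-4 regions, with 95% Wilson intervals as bars. Gained and lost bars lie near the grey bars, and the all-4 regions differ most in TSS within 2 kb (55.0% against 12.5% and 15.8%) and H3K4me3 (73.0% against 24.9% and 31.1%).

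The lists that took no part in choosing the members were read for the share of members with a peak. Of the 273 gained regions, 30.0% and 31.1% had a peak in the 0 h lists, 27.5% and 33.7% in the 2 h lists, and 58.2% and 49.1% in the 24 h lists. Both 24 h lists lay above all 4 earlier lists. By region, 36.3% of the gained regions had a peak in both 24 h lists and 28.9% in neither. The mean share was 53.7% at 24 h against 30.6% at 0 and 2 h, a difference of 23.1 percentage points (exact permutation test, two-sided, p = 0.133, the smallest that 2 lists against 4 can give).

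Lost regions went the other way. A peak was present in 51.6% and 48.7% of them in the 0 h lists, in 45.2% and 49.0% in the 2 h lists, and in 35.8% and 32.6% in the 24 h lists. All 4 earlier lists lay above both 24 h lists, with means of 48.6% and 34.2% (difference -14.4 points, exact permutation p = 0.133, again the smallest possible). For the 1128 regions with 1 list of each time, the means were 41.3% and 37.8% (difference -3.50 points, exact permutation p = 0.267). For the regions with a peak in all 4 lists they were 96.7% and 95.3% (difference -1.40 points, exact permutation p = 0.133). The smallest possible p was thus not particular to the members. The number of peaks also differed between the 24 h lists (17724 and 17247).

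**Figure D3:**
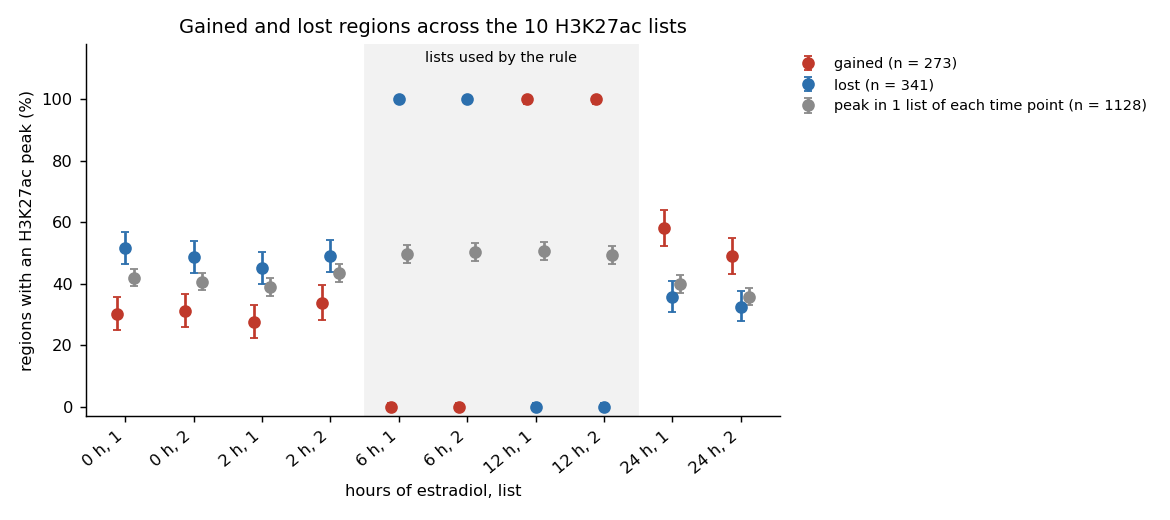
Share of gained, lost, and 1-list-each regions with an H3K27ac peak (y axis, %) in each of the 10 lists (x axis, hours of estradiol and list), with 95% Wilson intervals that cover counting error only. The shaded lists chose the members. At 24 h the gained regions (58.2% and 49.1%) stand above the lost regions (35.8% and 32.6%), and at 0 and 2 h they stand below.

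The split by length was chosen after the values were seen. For the 248 gained regions under 3 kb the share with a peak was 29.7% at 0 and 2 h and 53.4% at 24 h, and for the 25 of 3 kb or longer it was 39.0% and 56.0%, on the scale of list means. Among lost regions it was 45.0% and 29.6% for the 282 short ones and 65.7% and 55.9% for the 59 long ones. The values of the 24 h lists lay apart from those of all earlier lists for the short regions in both directions (exact permutation p = 0.133), and overlapped or met the earlier range for the long ones (exact permutation p = 0.267 for gained and 0.4 for lost).

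A fit of covered length per region to the 6 lists at 0, 2, and 24 h tested 18808 regions with a peak in at least 2 of them (limma on log2(covered bp + 200), Benjamini-Hochberg over all regions tested, threshold 0.05). At 24 h against 0 h, 748 were longer (3.98% of those tested, 3.48% of all 21498 regions) and 779 shorter (4.14% and 3.62%). Of the 273 gained regions 198 could be tested, and 48 were longer and 11 shorter, which is 17.6% and 4.03% of all gained regions. Among the 341 lost regions 238 were tested, with 11 longer and 31 shorter, or 3.23% and 9.09% of all lost regions. In the regions with 1 list of each time, 60 and 73 of 1128 were called (5.32% and 6.47%). Of the gained regions, 43 had no peak at 0 or 2 h and a peak in both 24 h lists. They passed the filter of 2 lists only through the 24 h lists, and could not be tested without either of them. Some shorter lost regions passed the filter only through the 0 h lists, as at Rab18 (2479 and 3723 bp at 0 h, 0 bp at 2 and 24 h). The counts of longer gained and of shorter lost regions therefore rest in part on the filter, and nothing is read from them.

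Individual courses varied. Of the gained regions, 43 (15.8%) had no peak at 0, 2, or 6 h and one in all 4 lists at 12 and 24 h, a lasting onset at 12 h. In 23 (8.42%), no list outside 12 h held a peak. Among the 1-list-each regions, 4.61% had no peak at 0 or 2 h and one in both 24 h lists, and 12.3% had none outside 6 and 12 h. Of the lost regions, 24 (7.04%) had a peak in all 6 lists up to 6 h and in none at 12 and 24 h. Another 40 (11.7%) were present at 6 h only. A peak in all 4 lists at 0 and 2 h and in none at 24 h was found in 4.34% of the 1-list-each regions. Returns to the early state were also seen. A peak in all 6 lists outside the rule was found in 3 gained regions (1.10%), which were absent at 6 h alone. The same held for 14 lost regions (4.11%), which were absent at 12 h alone, and for 2.75% of the 1-list-each regions.

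The lasting onsets described here, chosen after their values were seen, had no H3K4me3 peak in the lists of 6 and 12 h. A region 21861 bp from the TSS of H3f3a (chr1:180790215-180791673), which encodes a replacement histone H3.3, was covered for 1065 and 1268 bp (12 h) and 1386 and 924 bp (24 h), and for 0 bp in the 6 lists before. Within Fam220a (chr5:143560851-143562606) the covered length was 1756 and 1618 bp (12 h) and 1756 and 1599 bp (24 h). A longer one in Daam1, a formin-type actin regulator (chr12:71891406-71895476), measured 4071 and 3771 bp, then 3238 and 3883 bp. The same gene also held a lost region (chr12:71871032-71872367) that was covered in every list except those at 12 h. Kat7, a histone acetyltransferase gene, had a lasting onset of 1206 and 1287 bp (12 h) and 1210 and 1203 bp (24 h) (chr11:95297020-95298306).

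Among the lasting losses, Alad and Snap23 stood out by length. Alad encodes aminolevulinate dehydratase of heme synthesis, and the region over its TSS (chr4:62514540-62521830) was covered for 6977 and 6726 bp (0 h), 7138 and 7052 bp (2 h), and 7061 and 7291 bp (6 h). It was covered for 0 bp in all 4 lists at 12 and 24 h, and the groups did not overlap. The limit on long peaks given above applies to these 0 bp values. In the lists outside the rule the 24 h minus 0 h difference was -5.14 (log2 of covered bp + 200). Lasting losses are defined by their peaks at 0, 2, and 24 h, so the sign of this difference was fixed by that choice. No test is read from it. H3K4me3 covered 5744 to 6708 bp of the same region in all 10 of its lists. A region in all 4 lists lay 1231 bp away.

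At the TSS of Snap23, a membrane-fusion protein gene (chr2:120562474-120570751), 7253 to 8054 bp were covered in the 6 lists up to 6 h and none afterwards. The limit on long peaks applies to these 0 bp values too, and H3K4me3 was present in all 4 lists at 6 and 12 h. The other lasting losses were mostly short and distal. Near Det1 (chr7:78853800-78854824) the 6 earlier lists covered 584 to 1025 bp, and in Sec14l1 (chr11:117141029-117142561) they covered 1365 to 1533 bp. Within Wapl, which releases cohesin from chromatin (chr14:34683330-34686457), the covered length was 2836 to 3128 bp before 12 h and 0 bp after.

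Of 195 genes in 11 lists of erythroid, progenitor, and signaling genes, 6 gained and 8 lost regions lay at or nearest to a listed gene. For iron uptake and storage, 1 of 25 regions was gained, near Tfrc, the transferrin receptor gene. In the group of erythroid transcription factors and cofactors 1 of 74 was gained and 1 lost, and for the progenitor and myeloid factors 2 of 54 were gained and none lost. In erythropoietin receptor and JAK-STAT signaling, 2 of 46 were gained and 2 lost. Among 18 regions of hemoglobin and heme genes 1 was lost, of 50 at red cell membrane genes 2 were lost, and of 18 megakaryocyte and 46 cell cycle regions 1 each was lost. The mast cell and progenitor surface genes (30 regions) and the survival and autophagy genes (35 regions) had none of either. These shares stand beside 1.27% and 1.59% over all regions, and each rests on at most 2 regions.

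Cish encodes a feedback inhibitor of cytokine receptors and is a classical STAT5 target. A region 10009 bp from its TSS (chr9:107306921-107310311) was covered for 0 bp in both 0 h lists, 2709 and 3141 bp (2 h), 0 bp in both 6 h lists, 3391 and 3269 bp (12 h), and 2833 and 2365 bp (24 h). It thus came and went with the time point, with both replicates alike at every time. The 24 h minus 0 h difference was 3.80 ± 0.15 (SE, log2, limma adjusted p = 0.00184), yet the score percentiles at 12 h were only 2.85 and 0.161.

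Cbfa2t3 encodes ETO2, a corepressor that binds TAL1 complexes. An intronic region (chr8:122683866-122690171) was covered for 6214 and 6268 bp at 12 h and for 0 bp in the other 8 lists. Its score percentiles were 15.3 and 14.0, so the peaks were long and weak. Of the 10 H3K4me3 lists, 1 at 6 h held a peak there (1051 bp).

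Spi1 encodes PU.1, the myeloid factor that opposes GATA1. The region 2526 bp from its TSS (chr2:91078240-91079864) was covered for 1348 and 1347 bp (2 h), 1600 and 1462 bp (12 h), and 1202 bp in 1 of the 24 h lists, with 0 bp in the other 5. It carried H3K4me3 in 10 of 10 lists. A region 41390 bp from Myb, a progenitor transcription factor gene (chr10:21118447-21119515), was covered for 814 and 646 bp at 12 h and 766 bp in 1 list at 24 h.

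Lyn encodes a Src-family kinase of the erythropoietin pathway, and a region 28306 bp from it (chr4:3648680-3649809) was covered for 742 and 1130 bp at 12 h only. The region 10374 bp from the Tfrc TSS (chr16:32597806-32598546) was covered for 561 and 689 bp at 12 h, in 3 of the 4 lists at 0 and 2 h (485 to 741 bp), and in neither list at 6 or 24 h. These 2 members were thus opposite in their earlier course.

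On the losing side, Stat5a, the transducer of erythropoietin signals, returned at 24 h. Its promoter region (chr11:100859024-100864812) was covered for 5133 and 4396 bp (0 h), 5376 and 5403 bp (2 h), 5706 and 5204 bp (6 h), 0 and 0 bp (12 h), and 4914 and 4196 bp (24 h). H3K4me3 was present in 10 of 10 lists, with 3103 and 3168 bp (6 h) and 3055 and 2910 bp (12 h). The neighboring Stat5b promoter window, in contrast, was covered for 2817 and 2816 bp (6 h) and 2860 and 2888 bp (12 h). Of the 10 H3K27ac lists, those at 12 h alone lacked the Stat5a peak, and for 0 bp in a region of this length the limit on long peaks applies as well.

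Zfpm1 encodes FOG1, the GATA1 cofactor. A region 6257 bp from its TSS (chr8:122272657-122275884) was covered for 0 bp (0 h), 896 and 1112 bp (2 h), 3139 and 2144 bp (6 h), and 0 bp in all lists at 12 and 24 h, a short-lived peak that both replicates shared. Ank1 encodes the erythrocyte ankyrin that ties the membrane to spectrin. A region 1207 bp from a TSS of it (chr8:23050097-23057068) was covered for 6444 and 4972 bp at 6 h, 6105 bp in 1 list at 0 h, and 6226 bp in 1 list at 24 h.

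The replicates of Ank1 at 0 and 24 h thus disagreed, as did those of several members. In Cd47, the surface signal that spares red cells from phagocytes (chr16:49875350-49878967), 3618 and 3161 bp were covered at 6 h, and 1 list each at 0 and 24 h held 2579 and 3544 bp. Within Cdk6, a G1 kinase gene (chr5:3497006-3498793), 1736 and 1653 bp were covered at 6 h, and 1 list each at 2 and 24 h held 1766 and 1788 bp. Near F2rl2, a thrombin receptor gene of platelets (chr13:95688333-95689602), the 6 h lists covered 1215 and 736 bp and 4 of the other 8 lists held 525 to 1212 bp. Socs2, another cytokine feedback inhibitor, had 574 and 799 bp at 6 h only (chr10:95396268-95397066).

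**Figure D4:**
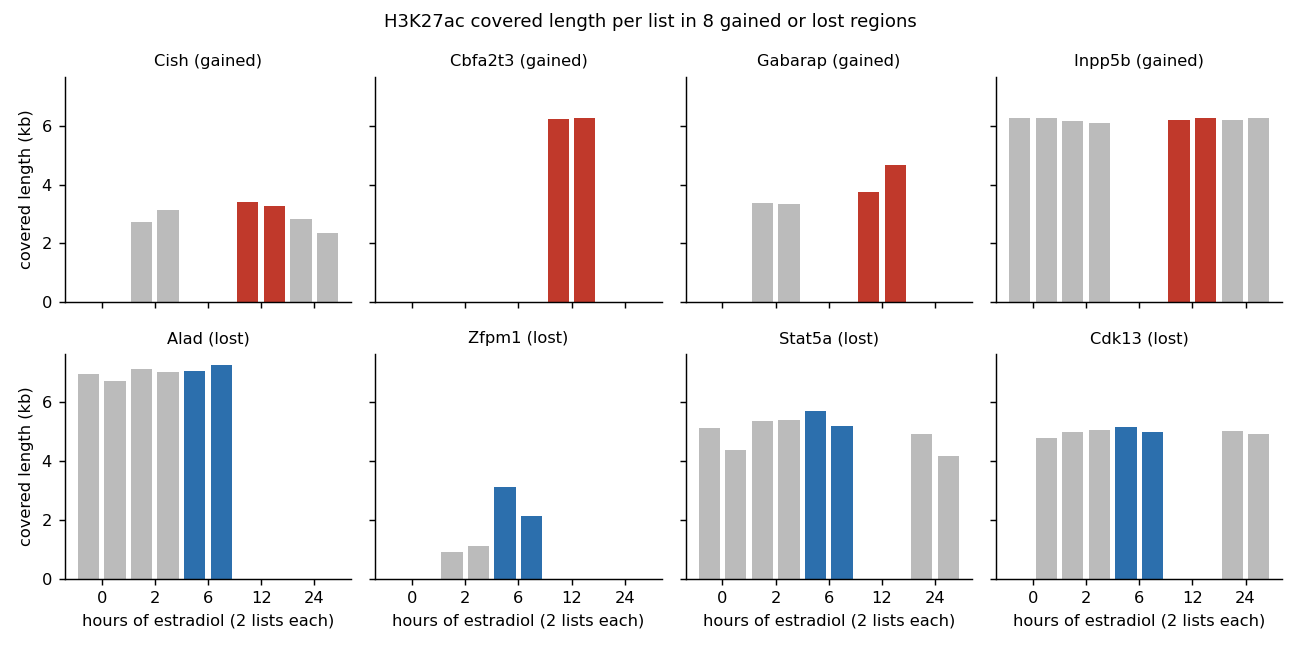
H3K27ac covered length (y axis, kb) in each of the 10 lists (x axis, hours, 2 lists each) for 4 gained and 4 lost regions, with the 6 and 12 h lists in color and the others in grey. Alad is covered in all 6 lists up to 6 h and in none later, Cbfa2t3 at 12 h only, and Inpp5b and Stat5a lack a peak at a single time point.

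Of the 8 gained members with the highest score percentiles, 7 were 3947 to 7419 bp long and 7 held H3K4me3 in 10 of 10 lists. In Inpp5b (chr4:124750617-124756864), 6096 to 6248 bp were covered in all 8 lists outside 6 h and 0 bp in both 6 h lists, with a 24 h minus 0 h difference of -0.01 ± 0.04 (SE, log2, limma adjusted p = 0.98). H3K4me3 covered 3696 to 5351 bp in all 10 lists, with 3696 and 4531 bp at 6 h. At 6 h no H3K27ac peak was thus listed where the promoter mark was, and the limit on long peaks applies to these 0 bp values.

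Both Zeb2 regions (chr2:45107114-45113763 and chr2:45114057-45118003) were covered in the 12 h lists (6650 and 6498 bp, 3814 and 3947 bp) and in 1 of the 24 h lists (6581 and 3947 bp), and not in the other 7. H3K4me3 covered them in 10 of 10 lists. The Zeb2 regions lie next to each other, and the limit on long peaks applies to their 0 bp values. Ywhaz, the gene of 14-3-3 zeta (chr15:36789825-36797243), had 7400 and 6247 bp at 12 h and 5576 bp in 1 list at 0 h. P2rx4, an ATP-gated channel gene (chr5:122703310-122710147), had 6712 and 6838 bp at 12 h and 3984 to 6670 bp in 4 of the other 8 lists. An intronic region of Msi2, an RNA-binding protein of blood stem cells (chr11:88550163-88556837), had 6613 and 6675 bp at 12 h and 6507 to 6675 bp in 4 of the others. It lay 161264 bp from a TSS, with H3K4me3 in 4 of 10 lists.

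Gabarap and Dapk3 showed replicates that matched at every time. The promoter region of Gabarap, an autophagy gene of the ATG8 family (chr11:69989668-69994324), was covered for 3368 and 3352 bp (2 h), 3759 and 4657 bp (12 h), and 0 bp in both lists at 0, 6, and 24 h. The region over the TSSs of 4930442H23Rik and Dapk3, a kinase gene (chr10:81182816-81184536), was covered for 1614 and 1642 bp (2 h), 1494 and 1721 bp (12 h), and 1721 and 1672 bp (24 h), and for 0 bp at 0 and 6 h. Its 24 h minus 0 h difference was 3.25 ± 0.14 (SE, log2, limma adjusted p = 0.00189).

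Of the 8 best-scoring lost members, 7 held H3K4me3 in 10 of 10 lists. Cdk13, Cic, Cldn13, Trim11, Nfe2l1, and Ttc39a lay over a TSS. The Cdk13 region (chr13:17801647-17806799) was covered for 5153 and 4984 bp at 6 h and 4783 to 5065 bp in 5 of the 6 lists outside the rule. Cic (chr7:25266576-25271780), Cldn13, a claudin gene (chr5:134911247-134917223), and Nfe2l1, a regulator of proteasome genes (chr11:96826107-96832030), likewise had peaks in 5 of those 6 lists. Trim11, a ubiquitin ligase gene (chr11:58976380-58981426), had them in 4, and Ttc39a (chr4:109404102-109408996) in all 6, with 3857 to 4895 bp. Beside the Nfe2l1 region lay another lost one (chr11:96819198-96825917). The limit on long peaks applies to the 0 bp values of all these regions.

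In Nuggc (chr14:65622062-65632052), 9876 and 9943 bp were covered at 6 h and 9958 bp in 1 list at 0 h, in the remaining 7 lists nothing, and H3K4me3 covered 7528 to 8220 bp in all 10 lists. Within Rad50, a DNA repair gene, a region 17915 bp from the TSS of Il13 (chr11:53652617-53659721) was covered for 6201 and 6219 bp at 6 h, 6094 to 7105 bp in all 6 lists outside the rule, and 0 bp in both 12 h lists. H3K4me3 was seen in 4 of 10 lists there. Peaks were also missing from some lists over the whole series. Of the regions with a peak in 7 or more of the 10 lists, 2680 had a median covered length of 4 kb or more. Among them 407 (15.2%) lacked a peak in 1 to 3 lists, against 18.6% of those with a shorter median. Of the 407, 197 lacked it in exactly 1 list, 6 in both 12 h lists only, and 1 in both 6 h lists only. H3K4me3 in all 4 lists at 6 and 12 h was present in 281 of the 407. The part of peak calling, and of the limit on long peaks, in the gains and losses of such regions was not tested.

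The limma fit over all 10 lists tested 20344 regions for 12 h minus 6 h. It called 59 longer (0.29%) and 62 shorter (0.305%), with 1408 at an unadjusted p under 0.05. Of the calls, 51 were gained and 53 lost regions, from which nothing is read since the rule used that contrast. The remaining 8 longer and 9 shorter calls were in regions with a peak in all 4 lists, which the rule does not touch, and each had no overlap between the time points. They were 17 of 15124 such regions. Covered length is not signal strength, and the peak scores given below often moved against it. Leaving out a list of either time point also changed which regions were shared, since only the remaining lists then had to hold a peak. The counts of such fits are therefore not set beside these.

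Shared regions that were not among the 5 largest changes are named here after their values were seen. They include the TSS of Slc4a1 and a region upstream of Kit, which lies beyond the 50 kb within which regions took a gene name. At the TSS of Slc4a1, the band 3 anion exchanger of red cells (chr11:102362904-102366286), the covered length was 2153 and 2385 bp (6 h) and 3383 and 3276 bp (12 h), and it was 3383 bp in both 24 h lists. The 12 h minus 6 h difference was 0.52 ± 0.07 (SE, log2, limma adjusted p = 0.0398). Its promoter window of 2 kb to either side was not called (0.37 ± 0.07, SE, log2, limma adjusted p = 0.282). The earlier lists covered 1527 to 2491 bp, below both 12 h lists.

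Upstream of Kit, the stem cell factor receptor, a region with its nearest TSS 69339 bp away (chr5:75501521-75505577) narrowed instead. It was covered for 3959 and 3767 bp (0 h), 3264 and 3330 bp (2 h), 3718 and 3655 bp (6 h), 2258 and 2484 bp (12 h), and 1063 and 1064 bp (24 h). The difference was -0.60 ± 0.06 (SE, log2, limma adjusted p = 0.0137). No H3K4me3 peak lay in it at 6 or 12 h, and the Kit promoter window itself held no H3K27ac peak in any of the 10 lists. The limit on long peaks applies to that window as well.

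An intron of Pde8a, a cyclic AMP phosphodiesterase gene (chr7:81234207-81237939), narrowed in the same way. It was covered for 3468 to 3733 bp (0 and 2 h), 3459 and 3733 bp (6 h), 2378 and 2192 bp (12 h), and 1209 and 1208 bp (24 h), a 12 h minus 6 h difference of -0.61 ± 0.07 (SE, log2, limma adjusted p = 0.0185). A region 26297 bp from Cipc, a regulator of the clock (chr12:86913473-86920746), was covered for 5476 to 6308 bp (0 and 2 h), 5752 and 6054 bp (6 h), 3457 and 3617 bp (12 h), and 3032 and 3610 bp (24 h). The 24 h lists lay below both 12 h lists in Pde8a and overlapped them near Cipc.

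Within Klf13, a Krüppel-like factor gene (chr7:63894826-63898320, nearest TSS E030018B13Rik), the covered length was 2060 and 2044 bp (0 h), 3323 and 3402 bp (2 h), 2293 and 2080 bp (6 h), 3410 and 3362 bp (12 h), and 2268 and 2189 bp (24 h), a 12 h minus 6 h difference of 0.59 ± 0.06 (SE, log2, limma adjusted p = 0.0137). The length thus alternated, with the 2 and 12 h lists above those of 0, 6, and 24 h. The largest widening, 1.18 ± 0.11 (SE, log2, limma adjusted p = 0.00923), was at a region 58911 bp from the nearest TSS, that of Cpeb4 (chr11:31808675-31813300). It had 1795 and 2130 bp (0 h), 3825 and 3972 bp (2 h), 1738 and 1805 bp (6 h), 4626 and 3906 bp (12 h), and 3686 and 4017 bp (24 h).

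At Gpt, which encodes alanine aminotransferase (chr15:76695485-76703134), 7509 and 7365 bp were covered at 0 h, 2959 and 2937 bp (2 h), 3306 and 3480 bp (6 h), 7530 and 7430 bp (12 h), and 3599 and 3482 bp (24 h), a 12 h minus 6 h difference of 1.10 ± 0.05 (SE, log2, limma adjusted p = 0.000312). Qsox2, a sulfhydryl oxidase gene (chr2:26233629-26237980), had 1907 to 2210 bp (0 and 2 h), 2119 and 1661 bp (6 h), 4351 and 3958 bp (12 h), and 1612 and 1852 bp (24 h) (1.07 ± 0.13, SE, log2, limma adjusted p = 0.0289). At the TSS of 4931414P19Rik (chr14:54601698-54606909) the difference was 0.69 ± 0.05 (SE, log2, limma adjusted p = 0.00277). It was covered for 4699 to 4874 bp (0 and 2 h), 3087 and 2987 bp (6 h), 4953 and 5087 bp (12 h), and 4804 and 4963 bp (24 h). Gpt was thus long at 0 and 12 h, Qsox2 at 12 h, and 4931414P19Rik at every time except 6 h.

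Homer1, a synaptic scaffold gene, had the largest called decrease among shared regions (chr13:93339545-93345030). It was covered for 2430 and 2176 bp (0 h), 2107 and 2320 bp (2 h), 5369 and 5352 bp (6 h), 2401 and 2117 bp (12 h), and 4875 and 5450 bp (24 h), a 12 h minus 6 h difference of -1.18 ± 0.09 (SE, log2, limma adjusted p = 0.00475). Arrdc2, an arrestin-domain gene (chr8:70838093-70842114), had 3687 to 4022 bp (0 and 2 h), 3957 and 3880 bp (6 h), 1651 and 1588 bp (12 h), and 3973 and 4022 bp (24 h) (-1.18 ± 0.05, SE, log2, limma adjusted p = 0.000365). Homer1 was thus as short at 0 and 2 h as at 12 h, and Arrdc2 was short at 12 h alone.

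Azin1, a regulator of polyamine synthesis (region 46050 bp from its TSS, chr15:38467676-38472112), had 4261 and 4377 bp (0 h), 2276 and 1821 bp (2 h), 4176 and 4147 bp (6 h), 1734 and 2150 bp (12 h), and 1863 and 1774 bp (24 h), a 12 h minus 6 h difference of -1.03 ± 0.12 (SE, log2, limma adjusted p = 0.026). At the divergent TSSs of Rbm12b2 and Tmem67 (chr4:12086704-12091784) the lists covered 4729 and 4696 bp (0 h), 2313 and 2525 bp (2 h), 5081 and 4763 bp (6 h), 2492 and 2377 bp (12 h), and 2819 and 2606 bp (24 h) (-0.96 ± 0.07, SE, log2, limma adjusted p = 0.00277). Both regions were long at 0 and 6 h and short at 2, 12, and 24 h. H3K4me3 covered 2771 and 2661 bp there at 12 h and 4338 to 5081 bp in its other 8 lists, so it was shorter in the 12 h lists but not in those of 2 and 24 h. Psap, the prosaposin gene (chr10:60283313-60285604), had 1878 to 2058 bp (0 and 2 h), 1913 and 2287 bp (6 h), 1150 and 944 bp (12 h), and 2025 and 1898 bp (24 h) (-0.88 ± 0.12, SE, log2, limma adjusted p = 0.0454).

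These calls depended on the settings. With only the peaks that scored no lower than the pooled median, the differences at Gpt and in Klf13 turned to -4.17 (limma adjusted p = 0.000375) and -3.58 (limma adjusted p = 0.00801). The best scores at 6 h were 394 and 284 (Gpt) and 302 and 260 (Klf13). At 12 h they were 104 and 107 (Gpt) and 179 and 144 (Klf13), below the pooled median of 241.89. Among the 5 largest changes in either direction the score moved against the length, as at Rbm12b2 (308 and 393 at 6 h, 671 and 701 at 12 h). Psap was the exception. When limma was fitted to the 4 lists alone, Gpt and Arrdc2 were the only named shared regions that still passed, among 1 longer and 2 shorter calls.

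**Figure D5:**
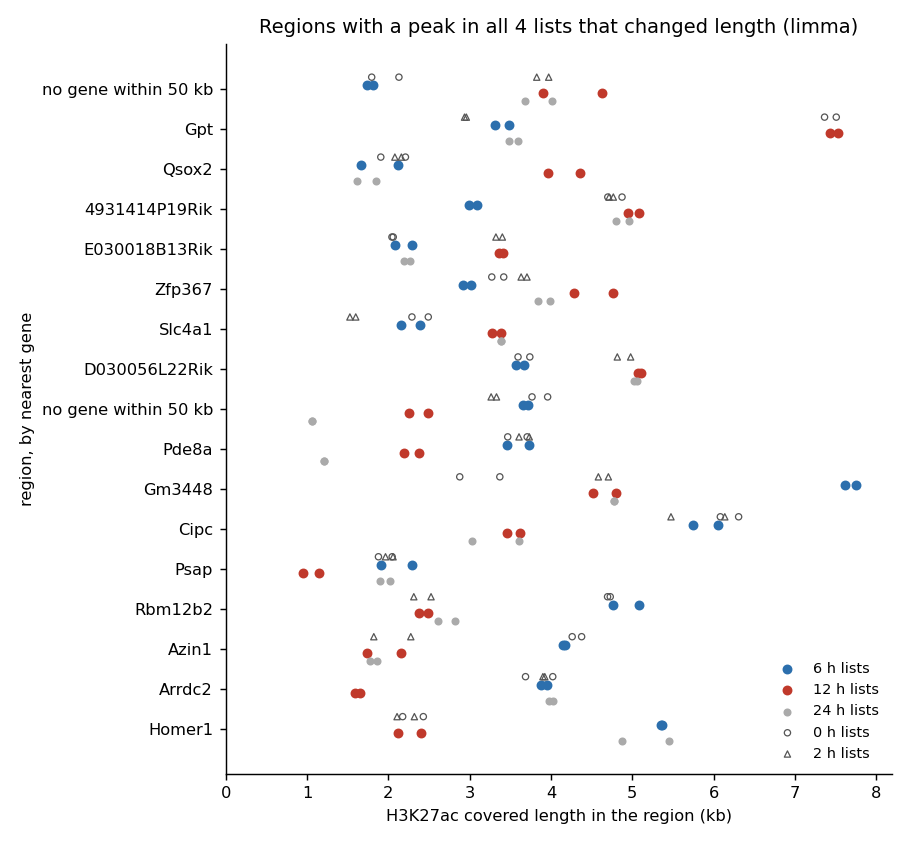
H3K27ac covered length (x axis, kb) of the 17 regions with a peak in all 4 lists that limma called longer or shorter at 12 h than at 6 h (y axis, by nearest gene), with the 2 lists of 6 and 12 h as colored points, those of 24 h in grey, and those of 0 and 2 h as open circles and triangles. The region labelled as having no gene within 50 kb among the shorter ones is the region upstream of Kit, where the 24 h lists (1063 and 1064 bp) lie below the 12 h lists (2258 and 2484 bp).

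At promoters, measured as the covered length within 2 kb of 1 TSS per protein-coding gene, 9602 were tested and 10 were longer (0.104%) and 12 shorter (0.125%) at 12 h. Of these, 6 longer and 9 shorter ones lay in gained or lost regions, and nothing is read from them, since the rule used this contrast. The others were the shared regions named above together with Myo1g, a myosin gene of blood cells, and Trim41. The Myo1g window was covered for 3167 and 3177 bp (6 h) and 3569 and 3599 bp (12 h), a 12 h minus 6 h difference of 0.17 ± 0.02 (SE, log2, limma adjusted p = 0.0178), and that of Trim41 for 3266 and 3130 bp and 4001 and 3815 bp (0.27 ± 0.03, SE, log2, limma adjusted p = 0.0388). The median log2 difference over all promoters tested was 0.01.

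Outside the gained and lost regions, no promoter of a listed gene was called. The called Alad and Stat5a promoters lie in lost regions and are a description only. None of the 10 iron, 11 red cell membrane, 13 erythroid factor, 7 progenitor factor, 8 mast cell, 8 megakaryocyte, 13 cell cycle, or 14 survival promoters tested was called. Their median log2 differences lay between -0.03 and 0.03.

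Alas2, the erythroid gene for the first enzyme of heme synthesis, had long promoter peaks from 12 h on, in a comparison that did not pass the test. Its window was covered for 0 and 633 bp (0 h), 822 and 0 bp (2 h), 0 and 355 bp (6 h), 2399 and 2733 bp (12 h), and 2635 and 2539 bp (24 h). The 4 later lists lay above all 6 earlier ones, with a 12 h minus 6 h difference of 3.05 ± 0.98 (SE, log2, limma adjusted p = 0.842). Hba-a1, Klf1, and Myc were covered over the whole window at both time points (4001 bp in all 4 lists). Urod (3746 and 4001 bp at 6 h against 4001 and 3928 bp at 12 h) had a log2 difference of 0.03.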

How the data were processed

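ChIP-seq peak lists of H3K27ac, H3K4me3, and CTCF in G1ER cells were analyzed as deposited. Reads of both histone marks were aligned to mm10 with Bowtie2 by the authors, who kept uniquely mapped ones and called peaks per library with MACS without its model step. The version, control, and threshold are not given in the sources used here, nor are such methods for CTCF. The deposited files hold the start and end of each peak and a score from the authors' peak caller, which served here for ranking and filtering peaks. Depth is unknown, and whether a peak was called also varies with it and with the background.

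The 4 H3K27ac lists at 6 and 12 h were merged where peaks touched, and overlap meant at least 1 bp. Groups came from the sample titles. Covered length was compared with limma (version 3.58.1, lmFit and eBayes with trend) after adding 200 bp and taking log2. Regions entered where at least 2 of the 10 lists had a peak, with 1 mean per time point and Benjamini-Hochberg adjustment over all regions tested (threshold 0.05). All-or-none lengths are not normally distributed, as limma takes its noise to be. Shares have 95% Wilson intervals, which cover counting error only, and lists were compared by exact permutation tests (scipy 1.17.1). Genes and TSSs were taken from GENCODE M21, and sequence from the GRCm38 assembly.

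Named were the 8 gained and 8 lost regions with the highest lower score percentile, the 5 longer and 5 shorter shared regions with the largest called difference, members at listed genes, and called promoters of listed genes. A region took the name of the nearest TSS within 50 kb. Of 195 listed genes, 194 matched the annotation and 1, Ahsp, did not. Some genes of the lists are not reported here. The members and lists were chosen with earlier results of these data known.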

Additional observations from a re-analysis of the deposited data

How the results depend on the processing

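The direction of the change in peak share between 0 or 2 h and 24 h held for gained and for lost regions in each setting in which it was computed (gained 8.92 to 23.7 percentage points, lost -9.49 to -17.9), and the counts did not. With only the peaks that scored no lower than the pooled median, 102 regions were gained and 141 lost, 48.0% and 45.4% had a TSS within 2 kb, 77.5% and 66.7% held H3K4me3, and 59.8% and 61.7% a GATA hexamer. In that setting 35 regions were longer and 4 shared regions shorter at 12 h, 20 promoters were longer and 20 shorter, 9 gained regions were longer and 4 shorter at 24 h, 7 lost regions were longer, and covered length fell by 0.104 Mb. Gpt and Klf13 (E030018B13Rik) reversed to -4.17 and -3.58. With equal numbers of top-scoring peaks, 41 regions were shorter, 20.8% of lost regions had a TSS within 2 kb, and the peak number did not differ (0 by construction).

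The fit moved the counts of calls as well. A pseudocount of 50 bp gave 97 longer and 105 shorter regions and 14 longer shared ones, and one of 1000 bp gave 5 longer promoters, as did lengths divided by the median peak length (5). A peak in at least 5 lists left 14 longer and 28 shorter regions and 4 longer promoters, where fewer regions were tested. The 4 lists alone gave 20 longer regions, 1 longer and 2 shorter shared ones, and 33 shorter promoters. A TSS lay within 8.42% of gained regions and within 5 kb of 21.2% of gained and 22.0% of lost ones. A window of 1000 bp held a GATA hexamer in 88.3% and 89.7%.

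Replicate numbers did not pair the lists. Over 10 pairs of same-numbered lists, the correlations of deviations from the time means ran from -0.03 to 0.02, and 0 passed 0.1. With the replicate block, 20 regions were longer and 26 shorter at 12 h, 3 shared regions shorter, 6 promoters longer, and 7 gained regions shorter at 24 h.

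Leaving out 1 list in turn gave 637 to 973 gained and 806 to 1172 lost regions, since 1 list then sufficed at its time. Of the gained regions 11.7% to 17.3% had a TSS within 2 kb and 19.9% to 29.4% H3K4me3, and of the lost ones 20.5% to 32.3% H3K4me3. From 109 to 131 regions were longer and 77 to 179 shorter at 12 h, 19 to 24 and 9 to 28 of them shared, and 11 to 33 promoters were longer and 18 to 46 shorter. At 24 h against 0 h, 6 to 89 gained regions were longer and 4 to 36 shorter, and 0 to 33 lost regions longer and 20 to 81 shorter. The covered length differed by -0.0358 to 0.267 Mb, and the Jaccard index within minus between time points was -4.4e-05 to 0.00721. Of the other values for named regions, 465 kept their direction and side of the threshold, 31 lost the call, and 19 gained it. The causes were not tested, and depth, which is unknown, limits all calls of absence.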
